A study of Rattus norvegicus with 6 samples.

Results

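The transporter genes of 6 solute carrier (Slc) families that move amino acids across the plasma membrane or out of lysosomes were examined in cultured mesenchymal stem cells that had been derived from the adipose tissue of Sprague Dawley rats. All rows of the count table with a symbol of the families Slc1a, Slc3a, Slc7a, Slc36a, Slc38a and Slc43a were taken, which gave 42 of 21857 rows. Of these, 26 had a mean of at least 1 CPM (a read count relative to the size of its library, with sizes scaled by TMM, the trimmed mean of M values) and are called expressed here. The other 16 comprised 10 rows below that minimum and 6 without a read in any library.

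The BCAA group received 3.432 mM branched chain amino acids (BCAA: leucine, isoleucine and valine, whose proportions the labels do not state) and the other group received vehicle, with 3 libraries per group. Both groups were exposed for 12 h with 100 µM hydrogen peroxide, in DMEM/HG medium made without BCAA and supplemented with 10% serum and antibiotics. A group without hydrogen peroxide was not analysed here. The comparison asks which transcripts differ when BCAA are given back to medium that lacks them, so an excess of BCAA and the relief of a shortage cannot be told apart. Whether the replicates came from different cultures or rats is not in the labels, and the p-values therefore speak only of spread among 6 libraries, some of which may be technical.

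Library totals were 12725344 to 15739731 counts. Of the mesenchymal stromal markers Thy1, Nt5e, Eng, Pdgfra, Pdgfrb, Col1a1, Dcn, Lum, Vim, Cd44 and Itgb1, all 11 were at or above 1 CPM, with a summed level of 17622 to 18191 CPM in BCAA libraries and 17757 to 19142 CPM in vehicle libraries. Of 9 macrophage and leukocyte markers, 8 were at or above 1 CPM, among them Ptprc, Cd68 and Csf1r, with a sum of 812 to 869 CPM in BCAA libraries and 869 to 1037 CPM in vehicle libraries, most of it from Lyz2. On the log2 scale, BCAA over vehicle, Lyz2, Cd14 and Aif1 differed by -0.20, -0.12 and -0.03. Ptprc, Cd68, Csf1r, Adgre1, Cd163 and Mrc1 went the other way, by 0.10, 0.08, 0.09, 0.05, 0.13 and 0.15. The part of macrophages and leukocytes in the transporter values was not tested. In bulk RNA, fewer cells of a type cannot be told apart from less RNA per cell. Of 7 endothelial markers, 2 were at or above 1 CPM, with a sum of 7.86 to 9.79 CPM in BCAA libraries and 7.95 to 8.95 CPM in vehicle libraries, with Cldn5 at 0 and Cdh5 and Emcn near 0. Of 7 mature adipocyte markers, 1 was at or above 1 CPM, with a sum of 6.53 to 7.42 CPM in BCAA libraries and 4.44 to 6.11 CPM in vehicle libraries, most of it from Fabp4, while Adipoq, Lep, Plin1, Cidec and Retn were near 0. Vehicle replicate 1 stood apart from the other 5 libraries on the first principal component of log2 CPM (29.1% of the variance), so calls below are also given without it.

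Amino acid carriers work as families with distinct partners and directions. The glycoprotein encoded by Slc3a2 (4F2hc) is the heavy chain that brings several Slc7 light chains to the cell surface. The light chain of Slc7a5 (LAT1) then takes up leucine and other large neutral amino acids in exchange for internal ones, and that of Slc7a11 (xCT) takes up cystine, the precursor of cysteine for glutathione, in exchange for glutamate. Slc43a1 and Slc43a2 encode carriers of the same large neutral amino acids without a heavy chain. Many Slc38 and Slc1 carriers use the sodium gradient to take up glutamine, other small neutral amino acids, or glutamate, and some Slc1 carriers work as exchangers. In mammalian cells short of an amino acid, the kinase GCN2 raises the transcription factor ATF4, and several of these genes, among them Slc7a11, Slc7a5, Slc3a2, Slc38a2 and Slc7a1, are known targets of it. Slc7a11 is also a known target of the oxidant sensor NRF2.

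RefSeq start windows (assembly GRCr8, 250 bases before to 50 after each start) were matched by symbol for 21 of the 26 expressed genes, in 24 windows; Slc1a1, Slc1a5, Slc7a2, Slc7a3 and Slc38a10 had none. They were searched on both strands for TGATGNAA, the core of the C/EBP-ATF response element bound by ATF4, and for TGACNNNGC, the core of the antioxidant response element bound by NRF2. The first was found in windows of 3 of the 21 genes (12.5% of their windows, against 3.98% of all 33469 windows), and the second in windows of 6 (25.0% of their windows, against 12.1% of all windows). The windows of Slc1a4 (chr14:98761513-98761812, minus strand), Slc7a1 (chr12:11664238-11664537, plus strand) and Slc38a1 (chr7:129681352-129681651, minus strand) are shown because they hold the ATF4 core. That of Slc38a2 (chr7:129742570-129742869, minus strand) is shown because it holds the NRF2 core and belongs to the gene with the most reads of all members. Each reads 5′ to 3′ along the gene, with matches to either core in capitals. A match describes the letters and is not evidence of binding.
Slc1a4: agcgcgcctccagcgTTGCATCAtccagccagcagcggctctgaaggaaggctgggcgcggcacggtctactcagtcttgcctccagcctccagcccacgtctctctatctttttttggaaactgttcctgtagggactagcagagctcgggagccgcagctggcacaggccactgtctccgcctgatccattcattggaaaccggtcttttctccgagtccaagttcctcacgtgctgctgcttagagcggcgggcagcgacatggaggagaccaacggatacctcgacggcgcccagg
Slc7a1: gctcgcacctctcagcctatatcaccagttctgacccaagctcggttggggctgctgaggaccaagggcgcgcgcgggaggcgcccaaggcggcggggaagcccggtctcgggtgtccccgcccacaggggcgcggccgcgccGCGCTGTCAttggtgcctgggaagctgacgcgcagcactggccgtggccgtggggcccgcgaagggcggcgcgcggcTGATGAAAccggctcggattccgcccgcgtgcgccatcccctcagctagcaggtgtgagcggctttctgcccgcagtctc
Slc38a1: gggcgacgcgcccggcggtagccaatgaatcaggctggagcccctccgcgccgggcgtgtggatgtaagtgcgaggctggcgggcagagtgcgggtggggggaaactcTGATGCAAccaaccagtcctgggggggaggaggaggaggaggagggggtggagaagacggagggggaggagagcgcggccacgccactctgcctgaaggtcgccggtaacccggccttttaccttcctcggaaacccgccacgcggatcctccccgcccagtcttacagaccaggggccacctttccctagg
Slc38a2: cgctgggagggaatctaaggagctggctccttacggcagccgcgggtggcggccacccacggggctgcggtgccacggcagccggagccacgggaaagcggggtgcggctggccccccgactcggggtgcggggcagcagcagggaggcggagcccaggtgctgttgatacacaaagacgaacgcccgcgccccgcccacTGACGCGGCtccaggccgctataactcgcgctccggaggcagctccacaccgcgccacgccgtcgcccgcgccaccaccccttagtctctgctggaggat
In the Slc1a4 window the ATF4 core lies on the opposite strand at position -235 from the start, and in the Slc38a1 window it lies on the gene strand at position -142. In the Slc7a1 window the capitals nearer the start are the ATF4 core, at position -30, and the others are the NRF2 core on the opposite strand. The capitals of the Slc38a2 window are the NRF2 core, at position -50. The other windows with the NRF2 core belong to Slc3a1, Slc3a2, Slc7a7 and Slc36a1. The single Slc7a11 window and the single Slc7a5 window hold neither core within these 300 bases.

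None of the 26 expressed transporter genes passed an adjusted p of 0.05 (edgeR's quasi-likelihood test, Benjamini-Hochberg over 12298 genes), where 28 of all genes tested (0.228%) did. At an unadjusted p under 0.05 there were 6 of 26, or 23.1%, against 11.8% of all genes tested: Slc7a2, Slc7a11, Slc38a2 and Slc38a6 were higher (5.95% of all genes tested) and Slc7a8 and Slc43a1 lower (5.84% of all genes tested) in the BCAA libraries. There were 3 higher and 0 lower without BCAA replicate 1, where 471 of all 12422 genes tested were higher and 501 lower. There were 2 higher and 1 lower without vehicle replicate 2, where 520 of all 12461 genes tested were higher and 604 lower. Without vehicle replicate 1 there were 3 higher and 3 lower, where 8.74% of all genes tested were higher and 9.5% lower. The BCAA and vehicle libraries did not overlap for 8 of 26 (30.8%, against 18.1% of all genes tested), all 8 with BCAA above. Of all genes tested, 9.29% had BCAA above and 8.76% had BCAA below. In sign, 18 genes were higher and 8 lower with BCAA, while 50.8% of all genes tested were higher. The median log2 fold change was 0.10 over the 26 genes and 0.0035 over all genes tested. The differences were small: the greatest in size was 0.52 on the log2 scale, and the median size was 0.15, against 0.11 over all genes tested. The typical standard error (SE) of a member's log2 fold change was 0.11. DESeq2 called 1 member, Slc7a2 (adjusted p = 0.039), where it called 1.72% of the genes to which it gave an adjusted p. Without vehicle replicate 1, which leaves 2 vehicle libraries, edgeR called 4 members, Slc7a11, Slc38a2 and Slc38a6 higher and Slc7a8 lower, where 3.93% of all genes tested were called (1.73% higher, 2.2% lower); 16 members were then higher and 10 lower in sign, with a median of 0.05. Over the 12 alternatives tried, the adjusted p ran from 0.039 to 0.59 for Slc7a2, from 0.043 to 0.59 for Slc7a11, from 0.0063 to 0.63 for Slc38a2, from 0.040 to 0.66 for Slc38a6 (11 alternatives, since DESeq2 gave it no adjusted p) and from 0.019 to 0.69 for Slc7a8.

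**Figure D1:**
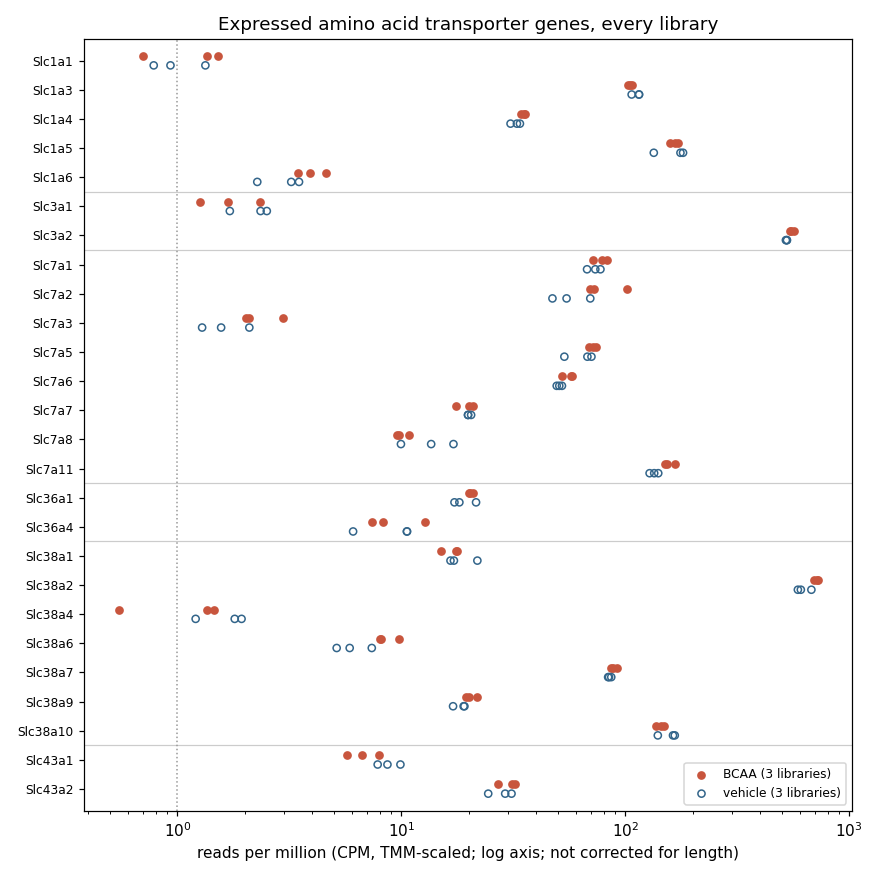
CPM (log axis, not corrected for transcript length) of the 26 expressed genes in each of the 3 BCAA libraries (filled) and 3 vehicle libraries (open), with lines between families. For most genes the 2 groups of points interleave, and for 8 genes, among them Slc38a2, Slc7a11 and Slc3a2, all BCAA points lie to the right of all vehicle points.

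The added amino acids are cargo of the LAT carriers, some of which work with the heavy chain of Slc3a2. Slc3a2 was at 543, 566 and 550 CPM in BCAA replicates 1 to 3, against 521, 527 and 526 CPM in vehicle replicates 1 to 3. The BCAA libraries all lay above the vehicle libraries, which were close together. The log2 fold change was 0.08 with a 95% interval of -0.05 to 0.20 (edgeR adjusted p = 0.64). Slc3a1, which encodes rBAT, the heavy chain of the kidney cystine carrier, was near the minimum at 1.77 ± 0.545 CPM in BCAA libraries and 2.19 ± 0.420 CPM in vehicle libraries (SD, n = 3 each). Its light chain partner Slc7a9 had 3 reads in all 6 libraries together.

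Slc7a5, the light chain of the main leucine exchanger LAT1, was at 69.0, 73.8 and 71.5 CPM in BCAA libraries, against 53.4, 70.6 and 67.7 CPM in vehicle libraries. Vehicle replicate 1 was low, and the highest vehicle library lay among the BCAA libraries. The difference was 0.16 on the log2 scale (95% interval -0.05 to 0.37; edgeR adjusted p = 0.54), and without vehicle replicate 1 it was 0.05. Slc7a8, which encodes LAT2, a light chain with a broader range of neutral amino acids, had 9.52, 10.8 and 9.78 CPM in BCAA libraries, against 9.95, 13.6 and 17.1 CPM in vehicle libraries. Vehicle replicate 1 lay within the range of the BCAA libraries and the other vehicle libraries lay above it. On the log2 scale the difference was -0.43 (SE 0.17; edgeR adjusted p = 0.35). Without vehicle replicate 1 it was -0.60 and passed (edgeR adjusted p = 0.019), with the vehicle libraries that were left at 13.6 and 17.1 CPM. Without vehicle replicate 3 it was -0.23 (edgeR adjusted p = 0.66). Gene models without a name overlap Slc7a8 in RefSeq, and the strand setting of the counting is not given in the sources used here.

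Slc43a1, which encodes the facilitative leucine carrier LAT3, was at 5.74, 7.98 and 6.65 CPM in BCAA libraries, against 8.67, 9.90 and 7.84 CPM in vehicle libraries. The groups overlapped, since BCAA replicate 2 exceeded vehicle replicate 3. Its log2 fold change was -0.38 (SE 0.17; unadjusted p = 0.041; edgeR adjusted p = 0.40). Slc43a2, which encodes the related carrier LAT4, was at 27.1, 31.2 and 32.1 CPM in BCAA libraries and 24.4, 29.1 and 31.0 CPM in vehicle libraries. These overlapped and had a log2 fold change of 0.10 (95% interval -0.14 to 0.33), which was 0.0053 without vehicle replicate 1. Slc43a3, known in human cells as a carrier of purine bases and not of amino acids, was below the minimum, with 64 reads in all. Of the genes for carriers of BCAA, none rose or fell by the test, and 2 of them, Slc7a8 and Slc43a1, had intervals below 0.

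Slc7a6 and Slc7a7 encode light chains that export cationic amino acids in exchange for neutral ones such as leucine and glutamine. Slc7a6 was at 55.8 ± 3.05 CPM in BCAA libraries and 50.7 ± 1.36 CPM in vehicle libraries, without overlap, but with a log2 fold change of 0.14 (SE 0.08; edgeR adjusted p = 0.52). Slc7a7 was at 19.4 ± 1.70 CPM in BCAA libraries and 20.1 ± 0.367 CPM in vehicle libraries, with overlap. Slc7a10, the light chain Asc-1, which marks white fat cells, had no read in any library; the count of 0 allows up to 0.19 to 0.24 CPM per library, on 3 counts and counting error only.

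**Figure D2:**
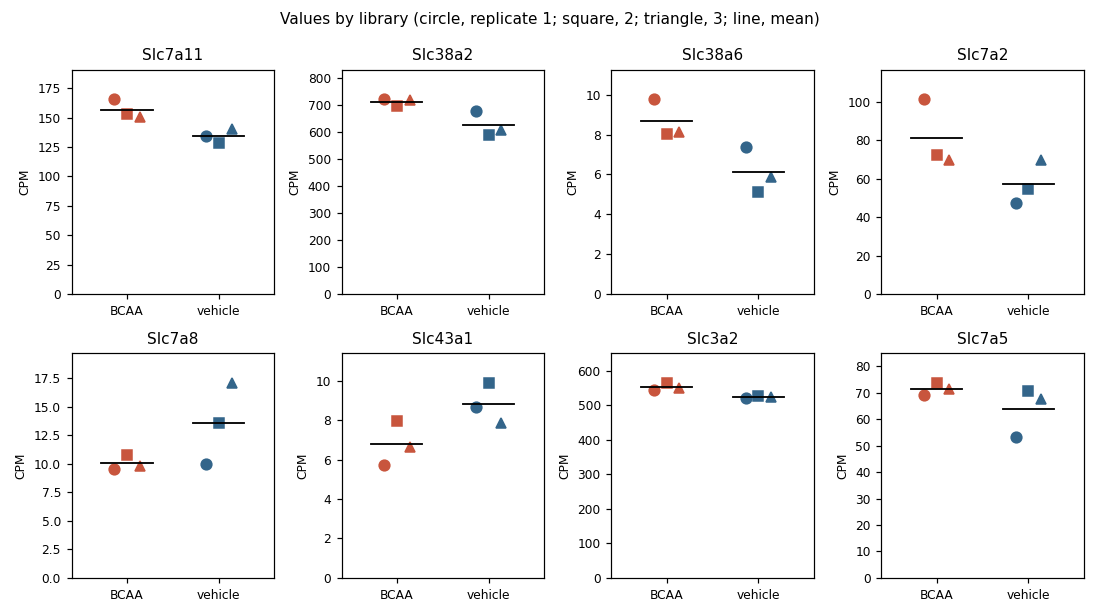
CPM in each library (linear axes from 0; circle, square and triangle for replicates 1, 2 and 3; line, mean of 3) with BCAA on the left and vehicle on the right of each panel, for the 6 genes with an unadjusted p under 0.05 and for Slc3a2 and Slc7a5. Vehicle replicate 1 is the highest vehicle library for Slc38a2 and Slc38a6 and the lowest for Slc7a2, Slc7a8, Slc7a5 and, by little, Slc3a2.

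Slc7a11, the light chain of the cystine and glutamate exchanger xCT, had the smallest adjusted p of the expressed members. It was at 166, 153 and 151 CPM in BCAA libraries, against 135, 128 and 140 CPM in vehicle libraries. All BCAA libraries lay above all vehicle libraries, with the gap between 151 and 140 CPM. This was a 1.17-fold difference (log2 fold change 0.22; SE 0.07; unadjusted p = 0.0061; edgeR adjusted p = 0.20). Without vehicle replicate 1 the log2 fold change was again 0.22 and the adjusted p was 0.043 (edgeR). Other genes of cystine use and glutathione were listed together with the oxidant defence genes Nfe2l2, Keap1, Hmox1, Nqo1, Txnrd1 and Srxn1. This list gave 1 call among 16 tested, where 0.228% of all genes tested were called. At an unadjusted p under 0.05, 1 was higher (Hmox1) and 2 lower (Cdo1 and Gss) with BCAA, against 5.95% and 5.84% of all genes tested. Cdo1, the cysteine dioxygenase that commits cysteine to breakdown, fell to 16.5 ± 0.700 CPM in BCAA libraries, against 26.3 ± 1.33 CPM in vehicle libraries (log2 fold change -0.67; edgeR adjusted p = 0.014). This call did not hold when some libraries were left out: the edgeR adjusted p was 0.057 without vehicle replicate 3, and 0.10, 0.12 and 0.062 on leaving out BCAA replicates 1, 2 and 3 in turn. Over all 6 such fits its log2 fold change stayed between -0.71 and -0.63. Hmox1, the haem oxygenase, had a log2 fold change of 0.27 (SE 0.07; edgeR adjusted p = 0.13), and Gss, glutathione synthetase, -0.21 (SE 0.07; edgeR adjusted p = 0.28). Of the 16 genes, 7 were higher and 9 lower in sign, with a median of -0.01. Without scaling factors 12 were higher and 4 lower. Over all 12298 genes tested, 7132 were then higher, against 6244 with TMM.

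The cationic carriers take up arginine and lysine without a heavy chain. Slc7a2, which encodes CAT2, a carrier known to be induced together with nitric oxide synthase, was at 102, 72.6 and 69.7 CPM in BCAA libraries, against 47.3, 54.7 and 69.7 CPM in vehicle libraries. BCAA replicate 1 was far above the rest, and the lowest BCAA library and the highest vehicle library had the same value to 3 digits. With all libraries the log2 fold change was 0.51 (SE 0.17; edgeR adjusted p = 0.30), the greatest upward difference among the members, and it was 0.31 without BCAA replicate 1, 0.39 without vehicle replicate 1 and 0.67 without vehicle replicate 3. Slc7a1, the widely expressed carrier CAT1, was at 77.6 ± 5.75 CPM in BCAA libraries and 72.8 ± 5.02 CPM in vehicle libraries, with overlap (log2 fold change 0.09; 95% interval -0.08 to 0.27). Slc7a3, the carrier CAT3 of brain, was low at 2.36 ± 0.530 CPM in BCAA libraries and 1.65 ± 0.409 CPM in vehicle libraries, and its interval was wide (-0.15 to 1.14). Slc7a4 was below the minimum, and Slc7a14 had no read. Slc7a12 was below the minimum, with 4 reads in all, and Slc7a13 and Slc7a15 had no read.

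The sodium-coupled neutral carriers of the Slc38 family held the member with the most reads, Slc38a2. It encodes SNAT2, which takes up glutamine, alanine and other small neutral amino acids and is known to rise when cells lack amino acids. Slc38a2 was at 722, 694 and 718 CPM in BCAA libraries, against 677, 589 and 608 CPM in vehicle libraries. All BCAA libraries lay above all vehicle libraries, by the least for vehicle replicate 1. This was a 1.14-fold difference (log2 fold change 0.19; SE 0.07; unadjusted p = 0.013; edgeR adjusted p = 0.29). Without vehicle replicate 1 it was 0.25 (edgeR adjusted p = 0.0063), the smallest adjusted p of any member in that fit.

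Slc38a6, a family member of poorly known substrates, was at 9.79, 8.05 and 8.14 CPM in BCAA libraries, against 7.38, 5.14 and 5.88 CPM in vehicle libraries. The groups did not overlap, and again vehicle replicate 1 was the vehicle library nearest to the BCAA libraries. The log2 fold change was 0.50 (SE 0.17; edgeR adjusted p = 0.27) with all libraries and 0.66 (edgeR adjusted p = 0.040) without vehicle replicate 1. Slc38a6 overlaps Trmt5, a tRNA methyltransferase gene, in RefSeq; Trmt5 itself had a log2 fold change of -0.04 (SE 0.15). Slc3a1 and Slc1a1 likewise overlap Prepl and Spata6l. Slc38a1, which encodes the glutamine carrier SNAT1, was at 16.7 ± 1.48 CPM in BCAA libraries and 18.5 ± 2.89 CPM in vehicle libraries. Its log2 fold change of -0.14 was -0.0061 without vehicle replicate 1, which at 21.8 CPM was its highest library. Slc38a4, a carrier best known from liver, was near the minimum at 1.12 ± 0.497 CPM in BCAA libraries and 1.65 ± 0.388 CPM in vehicle libraries. Its log2 fold change of -0.52 was the greatest in size among the members with all libraries and had a 95% interval of -1.33 to 0.30; without BCAA replicate 3 it was -0.22. Slc38a10, a carrier of broad tissue range, was at 143 ± 6.11 CPM in BCAA libraries and 156 ± 14.6 CPM in vehicle libraries (log2 fold change -0.13; edgeR adjusted p = 0.54, and 0.052 to 0.82 over the alternatives). Slc38a3, Slc38a5 and Slc38a8 were below the minimum, and Slc38a11 had no read.

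Lysosomal carriers release amino acids from digested protein, and Slc38a9 in addition reports lysosomal arginine to mTORC1, the growth kinase complex that leucine also activates. Slc38a9 was at 21.9, 20.0 and 19.4 CPM in BCAA libraries, against 19.1, 17.0 and 19.0 CPM in vehicle libraries, without overlap (log2 fold change 0.16; SE 0.11; edgeR adjusted p = 0.61). Slc38a7, an exporter of glutamine and asparagine from lysosomes, was at 88.8 ± 2.79 CPM in BCAA libraries and 85.0 ± 1.41 CPM in vehicle libraries, also without overlap (log2 fold change 0.06; SE 0.07). Slc36a1, which encodes the proton-coupled carrier PAT1, was at 20.0, 20.2 and 20.8 CPM in BCAA libraries, against 17.3, 18.2 and 21.6 CPM in vehicle libraries. The BCAA libraries lay inside the vehicle range, with a log2 fold change of 0.10 (95% interval -0.14 to 0.34). Slc36a4, the carrier PAT4, ranged from 7.41 to 12.8 CPM in BCAA libraries and from 6.09 to 10.6 CPM in vehicle libraries, and its log2 fold change of 0.06 was -0.16 without vehicle replicate 1 and -0.22 without BCAA replicate 1. Slc36a2 had no read, and Slc36a3 had 1 read in all 6 libraries.

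The Slc1 family holds the glutamate carriers and the neutral exchangers ASCT1 and ASCT2. Slc1a5, the glutamine exchanger ASCT2, was at 158, 172 and 166 CPM in BCAA libraries, against 134, 181 and 176 CPM in vehicle libraries. Vehicle replicate 1 lay below all BCAA libraries and the other vehicle libraries lay above them. The log2 fold change was 0.01 (95% interval -0.20 to 0.22) with all libraries and -0.11 without vehicle replicate 1, so its direction rested on that library; it also turned, to -0.018, without BCAA replicate 2. Slc1a4, the exchanger ASCT1 for alanine, serine and cysteine, was at 35.0 ± 0.667 CPM in BCAA libraries and 32.5 ± 1.59 CPM in vehicle libraries, without overlap (log2 fold change 0.11; SE 0.09). Slc1a3, the glial-type glutamate carrier GLAST, was at 105 ± 1.97 CPM in BCAA libraries and 112 ± 4.85 CPM in vehicle libraries (log2 fold change -0.10; SE 0.07; edgeR adjusted p = 0.62). Slc1a6, the glutamate carrier EAAT4 of cerebellum, was at 3.99 ± 0.594 CPM in BCAA libraries and 3.00 ± 0.640 CPM in vehicle libraries (log2 fold change 0.41; SE 0.23). Slc1a1, the glutamate carrier EAAT3, lay close to the minimum in both groups, at 1.19 ± 0.430 CPM in BCAA libraries and 1.02 ± 0.284 CPM in vehicle libraries. Slc1a2 and Slc1a7 were below the minimum.

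**Figure D3:**
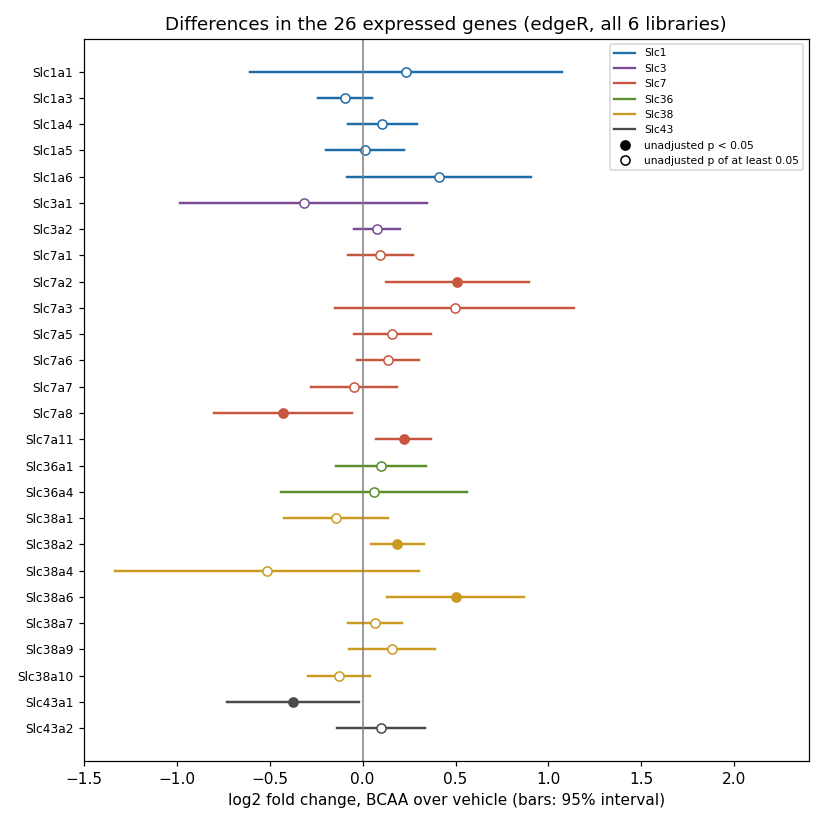
Log2 fold change, BCAA over vehicle, of the 26 expressed genes (edgeR; bars, 95% interval), coloured by family, with filled points for an unadjusted p under 0.05. The intervals of Slc7a2, Slc7a11, Slc38a2 and Slc38a6 lie above 0, those of Slc7a8 and Slc43a1 below 0, and the other 20 include 0.

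Summed over the expressed genes of a family, reads were higher with BCAA in the Slc38, Slc7 and Slc3 families, without overlap of the libraries and with no test made of the sums. The 7 Slc38 genes together held 982 to 1002 CPM in BCAA libraries and 880 to 951 CPM in vehicle libraries, of which Slc38a2 made up most. The 8 Slc7 genes held 454 to 501 CPM in BCAA libraries and 385 to 446 CPM in vehicle libraries. In sign, 6 of them were higher and 2 lower. Their greatest mean differences were those of Slc7a2 (81.3 CPM with BCAA, 57.2 CPM with vehicle, with overlap) and Slc7a11 (157 and 134 CPM). The Slc3 sums, 545 to 567 CPM in BCAA libraries and 524 to 529 CPM in vehicle libraries, were nearly all Slc3a2. The Slc1 sums (304 to 315 CPM in BCAA libraries, 286 to 326 CPM in vehicle libraries), the Slc36 sums (27.6 to 32.7 CPM in BCAA libraries, 23.3 to 32.1 CPM in vehicle libraries) and the Slc43 sums (32.9 to 39.2 CPM in BCAA libraries, 33.1 to 39.0 CPM in vehicle libraries) overlapped. All 26 genes together took 0.240% ± 0.00225 of scaled counts with BCAA and 0.223% ± 0.00366 with vehicle (SD, n = 3 each).

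Within the vehicle group, replicate 1 was the library furthest from the median for 12 of the 26 genes (46.2%), against 51.8% of all genes tested. It was low for 8 of these 12 genes and high for 4. Leaving it out moved 10 of the 26 by more than 0.1 on the log2 scale: Slc36a4 by -0.22, Slc7a8 by -0.18, Slc7a3 by -0.15, Slc1a5 and Slc7a2 by -0.12, Slc7a5 and Slc3a1 by -0.11 and 0.11, Slc38a1 and Slc38a4 by 0.14 and Slc38a6 by 0.16. Slc7a11 moved by 0.0028 and Slc3a2 by -0.0036.

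**Figure D4:**
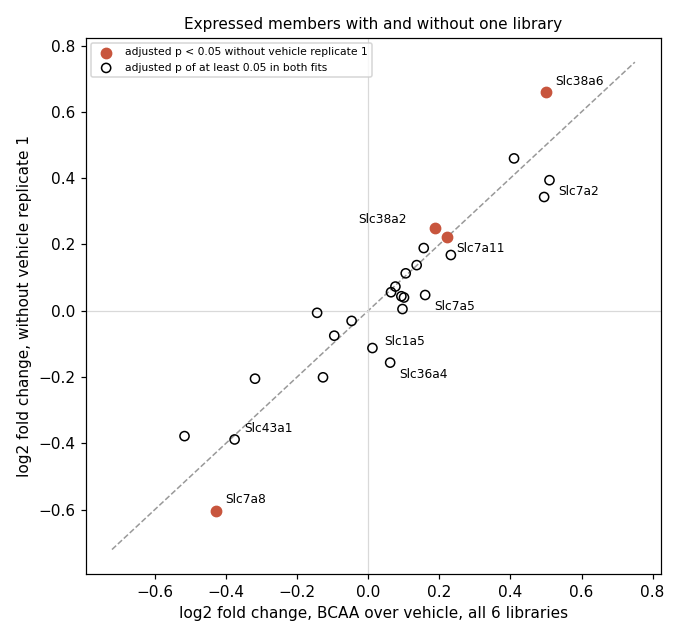
Log2 fold change, BCAA over vehicle, of the 26 expressed genes with all 6 libraries (horizontal axis) and without vehicle replicate 1 (vertical axis), with equality as a dashed line. The 4 filled points, Slc38a6, Slc38a2, Slc7a11 and Slc7a8, had an edgeR adjusted p under 0.05 without that library, and Slc1a5 and Slc36a4 lie above 0 on the horizontal and below 0 on the vertical axis.

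Carriers of amino acids outside these 6 families were set beside them. Of 17 tested, none was called by edgeR or DESeq2, and 6 had an unadjusted p under 0.05, all higher with BCAA, where 5.95% of all genes tested were higher at that p. They were the lysosomal histidine and peptide carrier Slc15a4 (log2 fold change 0.28; SE 0.09), the taurine carrier Slc6a6 (0.38; SE 0.13), the lysosomal cystine exporter Ctns (0.22; SE 0.09), Slc6a17, the glycine carrier Slc6a9, and Slc66a1, listed under its older symbol Pqlc2, which exports cationic amino acids from lysosomes. The median log2 fold change of the 17 was 0.13. Without BCAA replicate 2, 3 of the 18 carriers then tested were higher at that p, where 597 of all 12451 genes tested were. Without vehicle replicate 2, it was also 3 of 18, where 520 of all 12461 genes tested were higher. This list was chosen with earlier results of these data known. Within it, Slc25a44, the mitochondrial BCAA carrier, in addition picked with its values known, was at a log2 fold change of 0.11 (SE 0.13).

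The list for the ATF4 amino acid response also held the upstream genes Eif2ak1, Eif2ak3, Eif2ak4, Gcn1 and Impact. Among its 29 tested genes, Atf3 was the only call by edgeR, where 0.228% of all genes tested were called. This stress-induced transcription factor rose to 76.1 ± 6.05 CPM in BCAA libraries, against 46.2 ± 3.25 CPM in vehicle libraries (log2 fold change 0.72; edgeR adjusted p = 0.0015). With any library left out the log2 fold change was 0.67 to 0.78. Of the 29 genes, 8 had an unadjusted p under 0.05, all higher with BCAA (5.95% of all genes tested), and the median log2 fold change was 0.08. The lipoprotein receptor gene Vldlr (0.35; SE 0.07) and the secreted glycoprotein gene Stc2 (0.51; SE 0.13) came next by p. The list was chosen with earlier results of these data known. Within it, Atf4 itself and Asns, the asparagine synthetase gene that is its classic target, were in addition picked with their values known. They had log2 fold changes of -0.0043 (95% interval -0.17 to 0.16) and 0.0037 (95% interval -0.18 to 0.19). Atf4 is regulated mainly through translation, which read counts do not measure.

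Of 28 tested genes for leucine sensing and the machinery that brings mTORC1 to the lysosome, none was called by edgeR or DESeq2. At an unadjusted p under 0.05, 6 were higher and 1 lower with BCAA, against 5.95% and 5.84% of all genes tested. These became 3 higher and 0 lower without BCAA replicate 2, where 597 of all 12451 genes tested were higher and 538 lower. They became 4 higher and 0 lower without BCAA replicate 3, where 654 of all 12463 genes tested were higher and 556 lower. Fnip1, a partner of folliculin, had a log2 fold change of 0.30 (SE 0.08; edgeR adjusted p = 0.15), the leucine sensor gene Sesn2 0.24 (SE 0.07; edgeR adjusted p = 0.17) and the mTORC1 inhibitor gene Tsc2 0.19 (SE 0.07; edgeR adjusted p = 0.30). The median over the 28 genes was 0.04. Without vehicle replicate 1, 1 gene of this list was called, higher, as were 2 of the ATF4 list. At an unadjusted p under 0.05 there were then 5 higher and 3 lower in this list, 6 higher and 1 lower in the ATF4 list, and 4 higher among the other carriers, where 8.74% of all genes tested were higher and 9.5% lower.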

How the data were processed

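RNA sequencing libraries of 3 BCAA and 3 vehicle samples were analysed. The authors deposited raw read counts per gene symbol (21857 rows, 5287 without a read), neither normalized nor pooled. Per the submitters' processing notes, Trimmomatic, FastQC, STAR and HTSeq were used with the build rn6. Versions, annotation and strand setting were not given in the sources used here. Columns were matched to libraries by title.

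Counts were tested with edgeR 4.0.16 (R 4.3.3; TMM, filterByExpr with minimum count 10 and minimum total 15, robust quasi-likelihood fit, group as the only term), which left 12298 genes with 99.9% of counts. P-values were adjusted by Benjamini-Hochberg and called under 0.05. SE is the size of the log2 fold change divided by the square root of F, and 95% intervals use the fit's degrees of freedom. No library was a copy of another (chi-square per degree of freedom 2.65 to 18.1 over pairs). All 26 expressed members passed the filter. The members and the 4 context lists were chosen with earlier results of these data known, and no test was made over a list. Library values are given for members with an unadjusted p under 0.05, the member with the most reads in each family, Slc7a5 and some others. Transcript length was not used, so CPM compare libraries, not genes. The test was checked on simulated counts. Alternatives were DESeq2 1.42.0, RLE scaling, no scaling, no filter, no robust estimation, a replicate block and leaving out each library. Start windows came from RefSeq (GRCr8), not the counting build. Some list genes, among them Col1a2, Itgam, Pecam1 and Seh1l, were not analysed here.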

Additional observations from a re-analysis of the deposited data

How the results depend on the processing

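The number of expressed members was 27 at a minimum of 0.5 CPM, 21 at 5 CPM and 26 on unscaled library totals. Over 12 alternatives no member was called under RLE scaling, without scaling, without the filter, without robust estimation or with the replicate block, while DESeq2 called 1, and leaving out a library called 0 to 4, the 4 without vehicle replicate 1. All genes gave 144 calls with DESeq2, 124 without the filter, 6 with the replicate block and 7 to 491 with a library left out, the 491 without vehicle replicate 1. The ATF4 list gave 2 calls without scaling, with DESeq2 and without the filter, 0 with the replicate block (adjusted p of Atf3 0.10) and 1 to 2 with a library left out. The cystine and glutathione list gave 2 with DESeq2 and without the filter, 0 with the replicate block and 0 to 2 with a library left out. The leucine sensing list gave 0 to 1 with a library left out. Directions turned in 5 of 312 values, each time with 1 library left out: Slc1a5 (-0.11 without vehicle replicate 1 and -0.018 without BCAA replicate 2, in a range of -0.11 to 0.090), Slc36a4 (-0.16 without vehicle replicate 1 and -0.22 without BCAA replicate 1, in a range of -0.22 to 0.22) and Slc7a7 (0.020 without BCAA replicate 1, in a range of -0.097 to 0.020). The cause was not tested.

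Replicate numbers were not taken as pairs, since the labels do not say what a number shares. Deviations from the group means correlated at -0.07, 0.11 and -0.15 for numbers 1, 2 and 3 over 12298 genes. Vehicle replicate 1 correlated best with BCAA replicate 3 (0.15). With 3 libraries per group these values cannot exclude pairing. Library totals were alike by number: 14482260 (BCAA) and 14484051 (vehicle) for 1, 15654060 and 15739731 for 2, 12802663 and 12725344 for 3. What lies behind this was not tested. With the replicate block the edgeR adjusted p was 0.35 for Slc7a11 and 0.15 for Cdo1. Genes near 1 CPM (Slc1a1, Slc38a4, Slc3a1) had intervals over 1 log2 unit wide.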
